A study of Rattus norvegicus with 6 samples.

Results

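Guidance cues are secreted or membrane-bound proteins that steer growing axons and moving cells. The 67 genes described here are the rows of a rat count table that carry the symbols of these families, 67 of 32161 rows in all. The rule goes by gene symbol and uses no measured value, but the set was proposed with earlier results of these data known. Of the 67 genes 35 encode ligands (20 semaphorins, 8 ephrins, 3 slits and 4 netrins) and 32 encode receptors (9 plexins, 2 neuropilins, 14 Eph receptors, 3 robo and 4 Unc5 receptors). The RNA was from primary rat articular cartilage cells taken from the superficial layer, where the cartilage meets the joint space. One group was kept at 0 dyne/cm² (static, 3 libraries), and the other at 20 dyne/cm² (shear, 3 libraries), where dyne/cm² gives the force of moving fluid along the cell surface. The labels state neither the time under shear nor the age and strain of the rats. They also do not say whether replicates are separate cultures, so the spread behind each p-value is that of 3 libraries a group and could be technical. In RNA from a mixed culture, fewer cells of a type and less RNA per cell cannot be told apart.

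Semaphorins act on plexins, and most of the secreted class 3 semaphorins need a neuropilin as a co-receptor. Ephrins bind Eph receptors, most of which act as tyrosine kinases. Ephrins stay on the cell surface, so signals pass between touching cells, and they can pass in both directions. Slits bind robo receptors, and netrins bind Unc5 receptors and Dcc or neogenin. Outside the nervous system these families shape blood vessels and, in bone, take part in the exchange between bone-forming and bone-resorbing cells.

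Each library held 33342775 to 33979479 counts, and 13945 genes passed the filter on low counts. Of these, 10.8% were higher and 7.71% lower under shear, 18.5% in all, at an edgeR adjusted p under 0.05. The labelled cell type was checked against its markers. The lubricin gene Prg4 was present at 18.8 CPM (counts scaled to the size of the library) in static libraries and Col11a1 at 587 CPM, while the cartilage genes Col2a1, Col9a1, Cilp2 and Erg were too low to test, with at most 8 counts in a library. Of 9 tested genes of that list 3 rose and 1 fell: Sox9 by 1.26, Abi3bp by 0.41 and Prg4 by 0.25 on the log2 scale, and Acan with a log2 fold change of -0.34. The fibroblast collagen gene Col1a1 stood at 6101 CPM, and of 9 fibroblast markers 3 rose (Lum, Postn and Dcn) and 2 fell (Pdgfra and Pdgfrb). The osteoblast markers summed to 10.1 to 11.4 CPM in static and 19.9 to 24.5 CPM in shear libraries, most of it Runx2, and 2 of 4 tested rose (Runx2 and Dmp1) and 0 fell, with Ibsp too low to test. Of 8 tested skeletal muscle markers 6 fell and 0 rose, and their list summed to 51.0 to 53.0 CPM in static and 23.4 to 24.3 CPM in shear libraries, with Myog and Myod1 too low to test. The neuron markers summed to 29.8 to 38.5 CPM in static and 30.4 to 33.7 CPM in shear libraries, with Rbfox3 at 0 counts and 0 of 5 tested genes past the threshold. Of the endothelial markers, Cldn5 and Emcn were at 0 counts in all libraries and Cdh5, Tie1 and Esam too low to test. The list summed to 9.852 to 11.99 CPM in static and 5.24 to 9.22 CPM in shear libraries, most of it Kdr and Tek, and of 3 tested genes 1 fell and 0 rose. The smooth muscle markers summed to 762 to 791 CPM in static and 740 to 797 CPM in shear libraries, most of it Acta2. The cartilage list above summed to 700 to 716 CPM in static and 702 to 732 CPM in shear libraries, most of it Col11a1. Of 6 tested smooth muscle, 3 immune and 1 glial markers 0 passed the threshold by edgeR. The part of these markers in the results below was not tested.

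Shear moved a minority of the guidance genes, in both directions. Of the 67 genes 51 passed the count filter, 6 rose, 6 fell and 39 did not pass the threshold. The called share was 23.5%, beside 18.5% of all genes tested. Among 27 tested ligand genes 4 rose (Sema7a, Sema6d, Efnb1 and Efnb2) and 3 fell (Sema6a, Sema3d and Sema4c). Among 24 tested receptor genes 2 rose (Plxnd1 and Plxna1) and 3 fell (Epha4, Epha7 and Nrp1). The median log2 fold change was -0.06 for ligands and -0.08 for receptors, beside -0.01 for all genes tested. The median size of the change, sign aside, was 0.24 for ligands and 0.18 for receptors, beside 0.14 for all genes. Of the 51 tested guidance genes, 23 had groups that did not overlap, 8 with shear above and 15 with shear below static. That is 45.1%, beside 32.7% of all genes tested (16.7% above and 15.9% below). The balance depended on the scaling. With upper-quartile factors 6 guidance genes rose and 8 fell (ligands 4 and 5), and with library totals alone 6 rose and 10 fell (ligands 4 and 6), while over all genes the counts were 1275 and 1364, then 1124 and 1730, in place of 1508 and 1075.

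**Figure D1:**
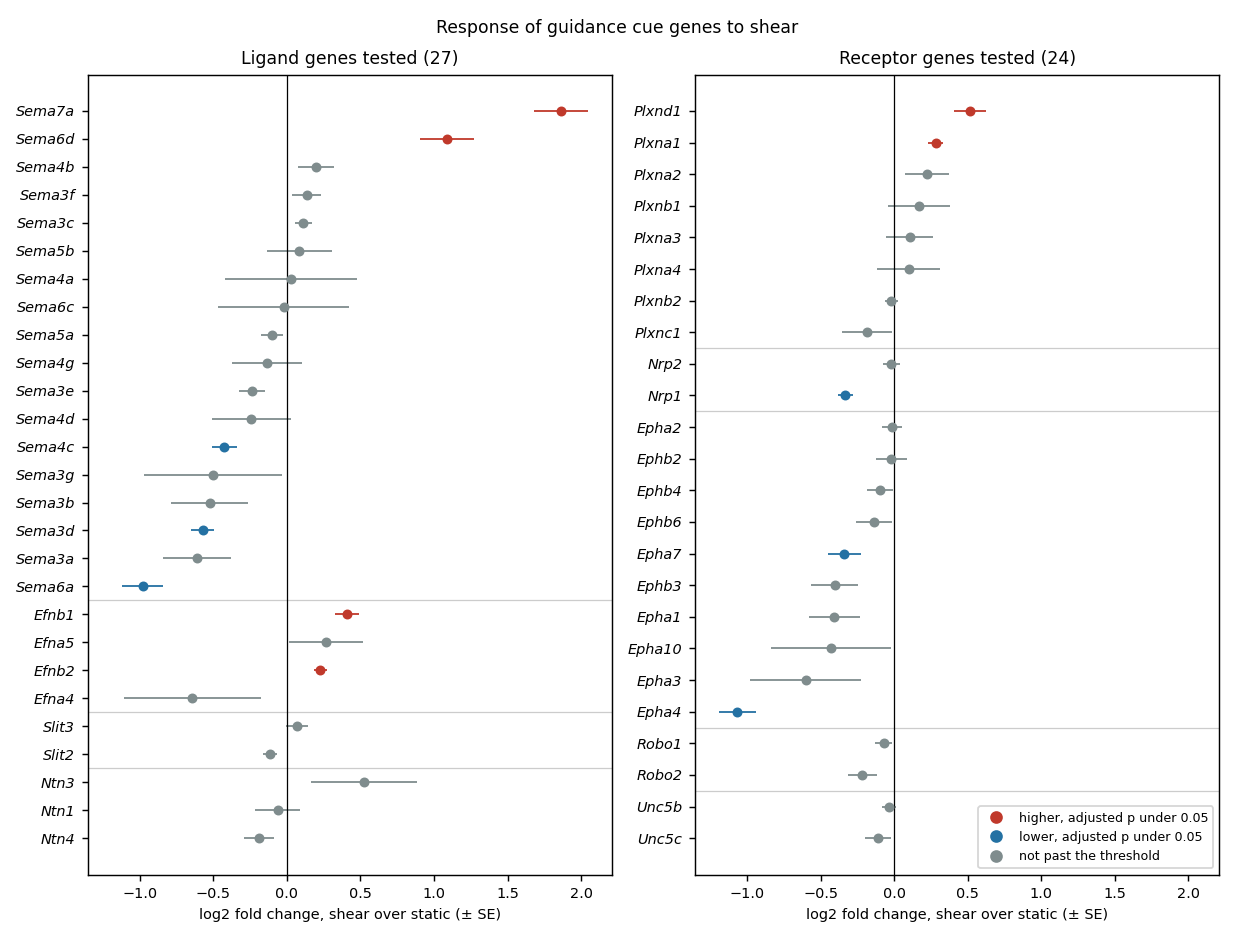
Log2 fold change, shear over static, of the 51 tested guidance genes, with ligand genes on the left and receptor genes on the right, grouped by family; points are edgeR estimates and bars are ± 1 SE. Red points rose, blue points fell and grey points did not pass the threshold; Sema7a lies farthest to the right at 1.86 and Epha4 farthest to the left at -1.07.

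**Figure D2:**
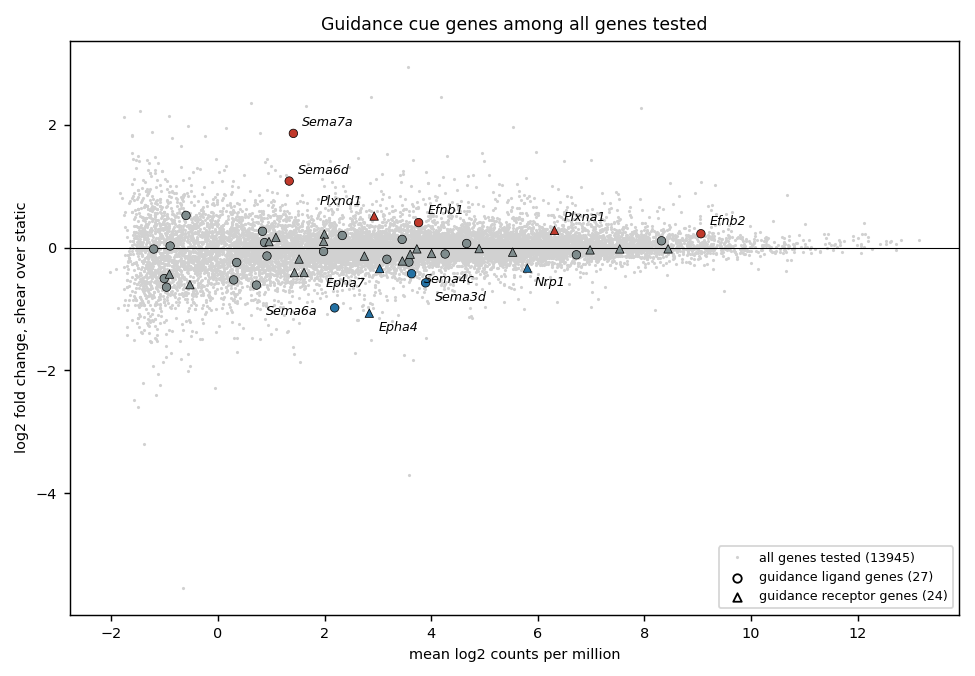
Log2 fold change, shear over static, against mean log2 CPM for all 13945 genes tested (grey dots) and for the guidance ligand genes (circles) and receptor genes (triangles). Named genes are the 12 past the threshold; Sema7a and Sema6d lie above most genes of a like level, and Efnb2 is the most abundant of the 12.

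A few genes made up most of the guidance RNA. Levels are compared between genes per length, as CPM per kilobase of exon, and mean values over static and then shear libraries are given. Efnb2, which encodes the transmembrane ligand ephrin-B2, was the most abundant ligand gene at 116 and 136. It held 50.9 ± 1.2% of the summed ligand level in static and 54.2 ± 0.43% in shear libraries (SD, n = 3 each). Next came the secreted semaphorin gene Sema3c at 60.5 and 65.4 and the slit gene Slit2 at 14.3 and 13.2, and then Slit3 and Efnb1. Summed over the 35 ligand genes, the level was 228 ± 9 in static and 250.6 ± 1.4 in shear libraries (SD, n = 3 each). Efnb2 was the gene that gained most in that sum. Among receptors Nrp2, a co-receptor for class 3 semaphorins, led at 55.0 and 54.3. It was followed by the plexin gene Plxnb2, whose product is a receptor for class 4 semaphorins, at 28.6 and 28.2, and by the netrin receptor gene Unc5b at 22.7 and 22.2. Nrp1 (11.1 and 8.85), Robo1 (9.57 and 9.11), Plxna1 (8.09 and 9.84) and Epha2 (7.65 and 7.57) followed, with Plxna1 below Nrp1 and Robo1 in static and above both in shear libraries. The summed level of the 32 receptor genes was 164 ± 8 in static and 159 ± 3 in shear libraries (SD, n = 3 each), a difference smaller than the static spread.

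**Figure D3:**
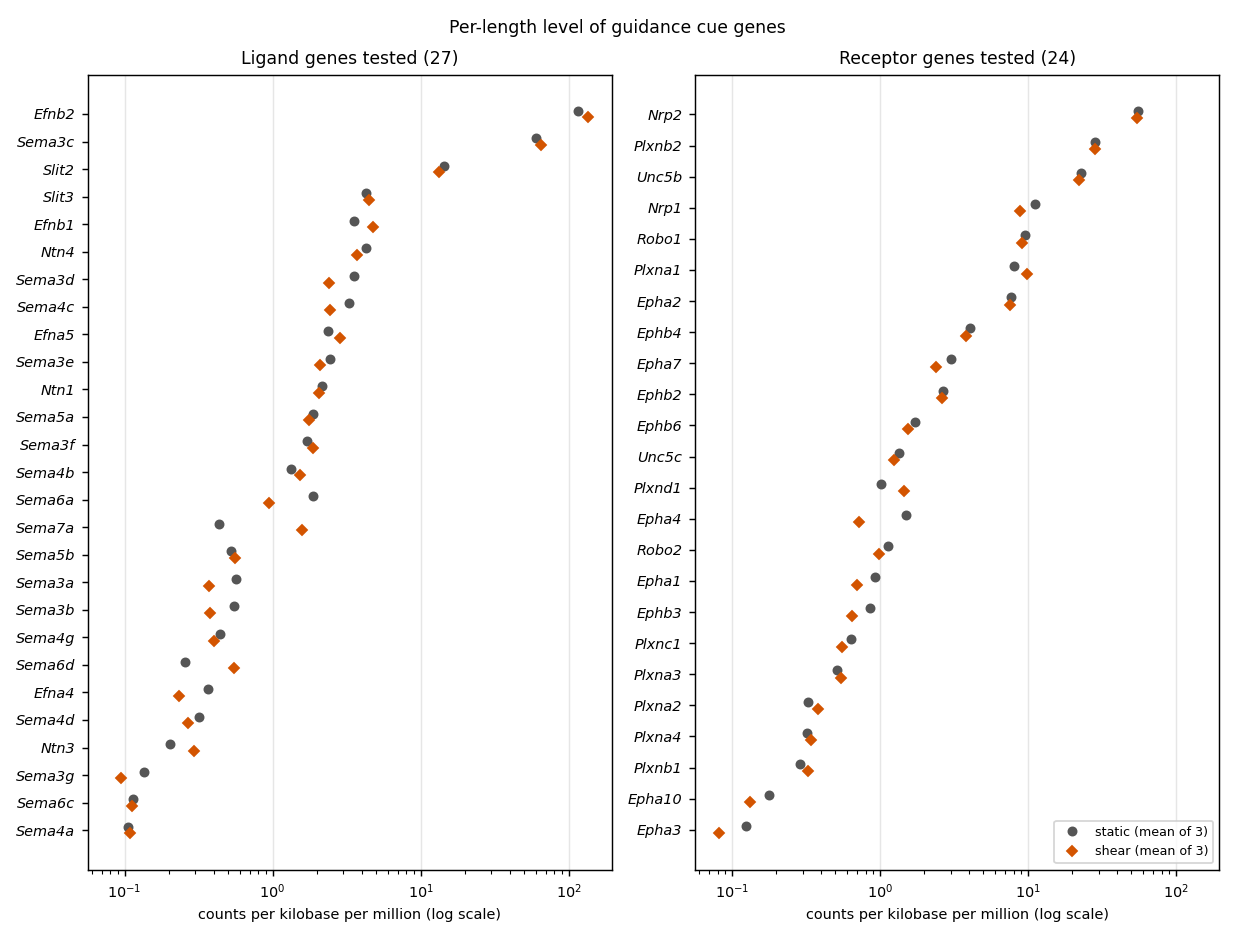
Level of each tested guidance gene in CPM per kilobase of exon on a log scale, with ligand genes on the left and receptor genes on the right; grey circles are means of the 3 static and orange diamonds means of the 3 shear libraries. Efnb2 and Sema3c among ligands and Nrp2, Plxnb2 and Unc5b among receptors stand above the rest, and Sema7a shows the widest gap between groups among ligands.

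At the other end, 16 guidance genes were too low to test, 8 ligands and 8 receptors. The receptor genes Epha8 and Unc5d had 0 counts in every library. No untested member had more than 10 counts in a library, and Efna3 and Sema4f had the most over all libraries. Efna1, which encodes a ligand of EphA2, had 2 to 6 counts per library, although Epha2 itself was among the more abundant receptors. Of the other A ephrin genes, Efna4 and Efna5 passed the count filter.

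Sema7a was the guidance gene that changed most. It encodes semaphorin 7A, a semaphorin anchored to the cell surface by a lipid and known to act through plexin C1 and through integrins that hold the β1 subunit. Sema7a (chromosome 8, 62723788 to 62745868 in the table's coordinates, whose build is not given) had 35, 36 and 46 counts in static and 131, 135 and 145 counts in shear libraries. Its CPM values were 1.03, 1.04 and 1.33 in static and 3.90, 4.14 and 4.35 in shear libraries. The lowest shear library lay well above the highest static one. The means were 1.13 ± 0.17 and 4.13 ± 0.23 CPM (SD, n = 3 each), which is a log2 difference of 1.86 (SE 0.19, adjusted p = 4.37e-08 by edgeR). Counted by size of fold change, it ranked 30 among all 13945 genes tested. Its receptor gene Plxnc1 had 2.58 to 3.26 CPM in static and 2.32 to 2.88 CPM in shear libraries. These ranges overlapped, and the log2 fold change was -0.18 (SE 0.17, adjusted p = 0.528 by edgeR). Itgb1, the gene of the β1 integrin subunit, went from 1167 ± 35 to 1308 ± 44 CPM (SD, n = 3 each), which is a log2 difference of 0.16 (SE 0.04, adjusted p = 0.0102 by edgeR). With library totals alone the call of Itgb1 ended (edgeR adjusted p = 0.0749). Itga1, named after its value was seen and encoding the α1 subunit that pairs with β1, rose by 0.25 on the log2 scale.

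The class 6 semaphorins, which span the membrane and act on class A plexins, moved apart. Sema6d (chromosome 3, 116899878 to 116958050) had 1.76, 1.62 and 1.39 CPM in static and 3.04, 3.49 and 3.60 CPM in shear libraries. Every shear library lay above every static one. Sema6d rose by 1.09 on the log2 scale (SE 0.18, adjusted p = 9.70e-05 by edgeR). Sema6a (chromosome 18, 41333551 to 41389510) had 6.01, 6.20 and 5.66 CPM in static and 2.80, 3.46 and 2.79 CPM in shear libraries. The groups did not overlap, and the shear libraries were the lower ones. The estimated log2 change was -0.98 (SE 0.14, adjusted p = 9.56e-06 by edgeR). Per length, Sema6d stood at 0.137 ± 0.013 of the level of Sema6a in static and at 0.581 ± 0.075 of it in shear libraries (SD, n = 3 each). This ratio describes a pair chosen after its values were seen. Of the other class 6 genes, Sema6c was at 9 to 20 counts per library with a log2 fold change of -0.02 (SE 0.45, adjusted p = 0.983 by edgeR), and Sema6b was too low to test.

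The promoters of the semaphorin genes with the steepest changes are shown because these genes moved most and because the windows differ in base composition and in the motif found. They are RefSeq windows in build GRCr8, from 250 bases before to 50 bases after the start of each gene, written 5′ to 3′ on the gene's strand, with matches to the searched motifs in capitals. Sema7a lies on the plus strand at chr8:67244068-67244367, Sema6d on the plus strand at chr3:132337106-132337405 and Sema6a on the minus strand at chr18:42358491-42358790.
Sema7a: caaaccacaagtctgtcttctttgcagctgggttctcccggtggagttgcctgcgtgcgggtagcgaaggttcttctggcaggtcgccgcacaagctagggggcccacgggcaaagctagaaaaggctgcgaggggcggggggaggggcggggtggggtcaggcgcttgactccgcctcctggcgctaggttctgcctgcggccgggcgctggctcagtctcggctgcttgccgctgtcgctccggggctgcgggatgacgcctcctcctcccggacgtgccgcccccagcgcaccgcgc
Sema6d: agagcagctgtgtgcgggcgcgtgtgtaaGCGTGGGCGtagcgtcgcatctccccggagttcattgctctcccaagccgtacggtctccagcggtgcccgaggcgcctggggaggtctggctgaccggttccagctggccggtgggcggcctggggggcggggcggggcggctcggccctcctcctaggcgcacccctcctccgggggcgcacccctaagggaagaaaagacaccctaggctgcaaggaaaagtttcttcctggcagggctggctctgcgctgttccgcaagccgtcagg
Sema6a: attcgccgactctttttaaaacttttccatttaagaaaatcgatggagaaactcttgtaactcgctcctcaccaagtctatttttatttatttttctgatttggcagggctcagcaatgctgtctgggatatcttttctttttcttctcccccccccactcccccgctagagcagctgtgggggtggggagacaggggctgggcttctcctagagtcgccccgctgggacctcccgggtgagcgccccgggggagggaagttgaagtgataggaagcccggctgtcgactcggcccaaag
Bases G and C made up 69.7% of the Sema7a window, 69.0% of the Sema6d window and 53.3% of the Sema6a window. Matches to TEAD (GGAATG), AP-1 (TGANTCA), EGR (GCGNGGGCG) and CRE (TGACGTCA) letters were sought on both strands. These are the motifs of the partners of YAP, of FOS and JUN, of the EGR factors and of CREB. The Sema6d window holds 1 EGR match, with its first base 221 bases before the start, and the other windows shown hold none of the 4. RefSeq windows matched 52 of the 67 guidance genes by symbol and 10 of the 12 that passed the threshold. Of those 10, Sema6d was the gene with a match. An EGR match was in 8 of the 52 windows (15.4%), beside 4.98% of 33469 windows of all genes. All fixed letters of the EGR motif are G or C, and the windows compared were not matched for base composition. Efna1, Efna3 and Epha8, among the 8, were too low to test. A TEAD match was in 6 (11.5%, beside 14.2%), an AP-1 match in 1 (1.92%, beside 7.33%) and a CRE match in 1 (1.92%, beside 1.83%). The plexin genes Plxna2, Plxnb2 and Plxnc1 were among those with an EGR match, and none of these 3 passed the threshold in either direction. A match of letters is a description and shows no binding.

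Most secreted class 3 semaphorin genes had fold changes below 0, though 1 passed the threshold. Of 7 tested, 0 rose and 1 fell (14.3%, beside 18.5% of all genes tested called in either direction). In 4 (57.1%) all shear values lay below all static ones, beside 15.9% of all genes tested. The median log2 fold change was -0.50. This was the value of Sema3g (SE 0.47, adjusted p = 0.53 by edgeR), with 6 to 26 counts per library and overlapping groups. Sema3c and Sema3f lay above 0, at 0.11 and 0.13. The median was -0.25 without static replicate 1 and -0.28 with limma-voom, and 5 of the 7 stayed below 0 in both. The member that fell was Sema3d, with 18.2, 17.7 and 17.2 CPM in static and 11.5, 12.4 and 11.9 CPM in shear libraries. The gap between the groups was wider than the spread within either. Its log2 fold change was -0.57 (SE 0.08, adjusted p = 7.79e-06 by edgeR). Sema3a, the best studied repellent of the class, had 2.35, 1.56 and 1.85 CPM in static and 1.16, 1.23 and 1.38 CPM in shear libraries. Its groups did not overlap, but it missed the threshold with a log2 fold change of -0.61 (SE 0.23, adjusted p = 0.0719 by edgeR). Sema3e, whose product binds plexin D1 without a neuropilin, had 12.6, 12.8 and 13.3 CPM in static and 11.6, 9.96 and 11.3 CPM in shear libraries. It was the member nearest to the threshold, with a log2 fold change of -0.24 (SE 0.09, adjusted p = 0.0714 by edgeR). With library totals alone both passed, at edgeR adjusted p of 0.0443 for Sema3a and 0.0265 for Sema3e, and Sema3e also with upper-quartile factors (0.0427).

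Sema3e, Sema3a and Sema3d lie on the same strand of chromosome 4, from 17272511 to 19413484 in the table's coordinates, a stretch of 2.14 megabases singled out after the values were seen. The table lists 7 genes there, and the 3 semaphorins were the ones with enough counts for the test. Sema3c lies on the same strand at 14318274 to 14490446, so that all 4 span 5.1 megabases, and its pattern was another one. Its CPM values were 336, 273 and 313 in static and 326, 331 and 340 in shear libraries. Static replicate 2 was the lowest of all libraries. The log2 fold change was 0.11 (SE 0.06, adjusted p = 0.189 by edgeR). Without static replicate 1 Sema3c passed the threshold at 0.18 (edgeR adjusted p = 0.0296), and without static replicate 2 its log2 fold change was 0.04. Over all alternatives its adjusted p ran from 0.0296 to 0.745.

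In class 4, whose members span the membrane and act mostly on class B plexins, Sema4c fell. It had 13.6, 13.6 and 15.1 CPM in static and 10.9, 10.2 and 10.5 CPM in shear libraries. The groups were apart, and the log2 fold change was -0.42 (SE 0.09, adjusted p = 9.39e-04 by edgeR). Exons of a gene on the other strand cover 1.1% of its exon length. Plxnb2, the gene of a receptor of semaphorin 4C, had 185 to 191 CPM in static and 177 to 191 CPM in shear libraries and a log2 fold change of -0.02 (SE 0.05, adjusted p = 0.837 by edgeR). Sema4d, the ligand gene of plexin B1, was low, with 42 to 49 counts in static and 24 to 47 counts in shear libraries. The estimated log2 change was -0.24 (SE 0.27, adjusted p = 0.611 by edgeR), and that of the receptor gene Plxnb1 was 0.17 (SE 0.21, adjusted p = 0.657 by edgeR). Of 5 tested class 4 genes 0 rose and 1 fell (20%, beside 18.5% of all genes tested called in either direction). Of 2 tested class 5 genes, Sema5a and Sema5b, 0 passed.

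**Figure D4:**
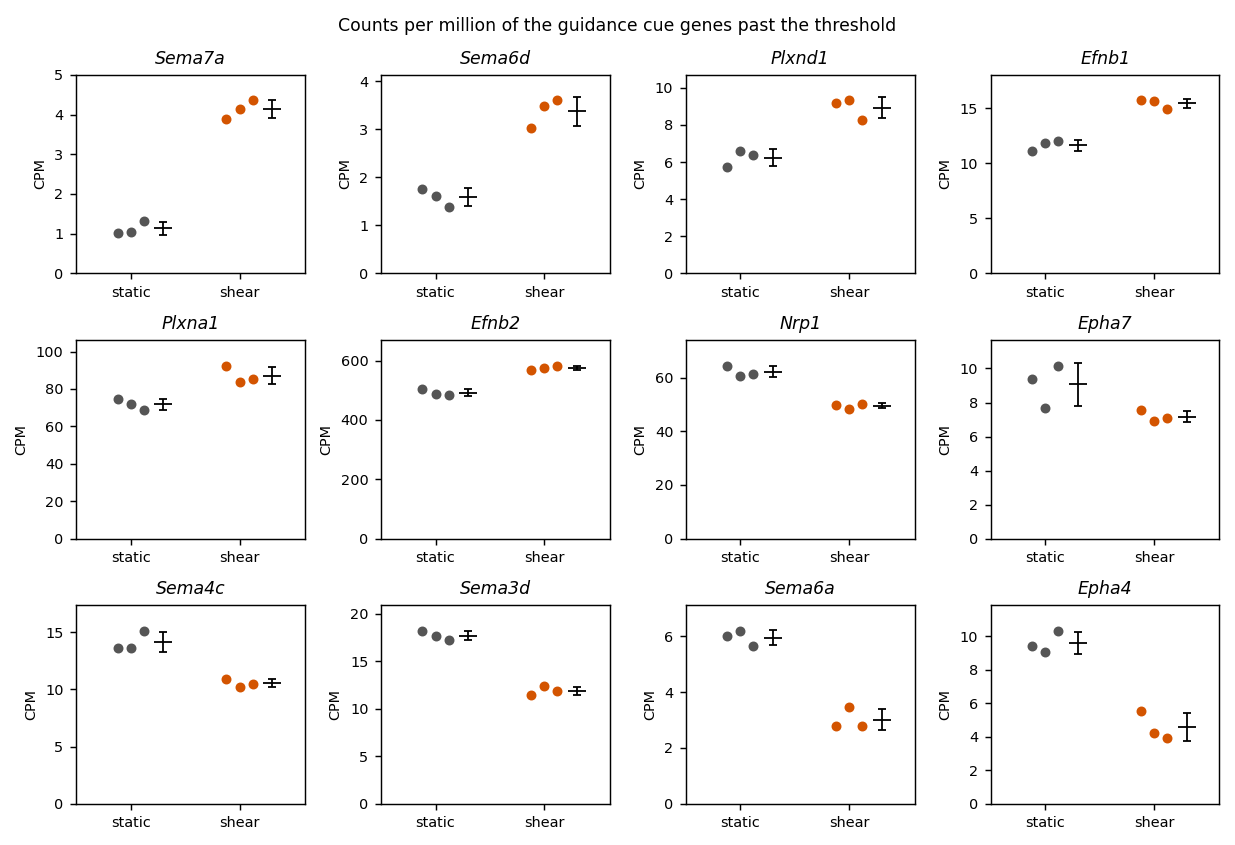
CPM in each library for the 12 guidance genes past the threshold, ordered from the steepest rise to the steepest fall; dots are libraries, and the bar beside them is the mean ± SD of 3 libraries, on axes that start at 0. In every panel the static and shear dots do not overlap, which the choice of genes past the threshold favours, and the narrowest gap is in Epha7.

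Semaphorin receptor genes rose and fell side by side. Plxnd1, which encodes the receptor of semaphorin 3E and is best known from blood vessels, had 5.75, 6.60 and 6.35 CPM in static and 9.17, 9.32 and 8.29 CPM in shear libraries. All shear values lay above the static ones. Its log2 fold change was 0.52 (SE 0.11, adjusted p = 0.0011 by edgeR). Plxna1, which encodes a signalling receptor for class 3 and class 6 semaphorins, had 74.5, 71.8 and 68.9 CPM in static and 92.5, 84.0 and 85.1 CPM in shear libraries. It also rose without overlap, by 0.28 on the log2 scale (SE 0.05, adjusted p = 3.78e-04 by edgeR). Of the 8 tested plexin genes 2 rose and 0 fell, a called share of 25% beside 18.5% of all genes tested. Groups did not overlap in 2 (25%), beside 32.7% of all genes tested. In 6 the fold change lay above 0, and the median log2 fold change was 0.14. Each of the other scalings gave the same numbers above and below 0, while 5 lay above 0 without static replicate 2 or shear replicate 1, and 7 without shear replicate 2.

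Of the neuropilin genes 1 fell. Nrp1, the co-receptor through which semaphorin 3A and some forms of vascular endothelial growth factor (VEGF) act, had 64.4, 60.7 and 61.5 CPM in static and 49.8, 48.4 and 50.1 CPM in shear libraries. The shear libraries lay close together and below all static ones. The estimated log2 change was -0.33 (SE 0.05, adjusted p = 5.23e-05 by edgeR). Exons of an unnamed gene on the same strand cover 1.43% of its exon length. Nrp2, the more abundant of the pair, had 380, 301 and 370 CPM in static and 345, 349 and 344 CPM in shear libraries. Here static replicate 2 was again the low library, as for Sema3c, and the groups overlapped. The log2 fold change was -0.02 (SE 0.06, adjusted p = 0.888 by edgeR), with a range of -0.11 to 0.05 over the alternatives.

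Both tested B ephrin genes, whose products span the membrane, rose. Efnb1 had 11.08, 11.82 and 12.02 CPM in static and 15.7, 15.7 and 15.0 CPM in shear libraries. The groups were well apart, with a log2 fold change of 0.41 (SE 0.08, adjusted p = 7.68e-04 by edgeR). Efnb2 had 505, 487 and 483 CPM in static and 570, 574 and 583 CPM in shear libraries. It rose by 0.23 on the log2 scale (SE 0.04, adjusted p = 4.28e-04 by edgeR), a change of 17.1%. This was a small step in a very abundant transcript. Efnb3 was too low to test, with 0 to 4 counts per library. Of the A ephrins, which are tethered by a lipid anchor, Efna4 and Efna5 were tested and neither passed, and Efna1, Efna2 and Efna3 were too low.

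Among the Eph receptor genes, Epha4 fell most. EphA4 is unusual in that it binds ephrins of both the A and the B type. Epha4 (chromosome 9, 83111222 to 83253458) had 9.38, 9.04 and 10.3 CPM in static and 5.54, 4.23 and 3.93 CPM in shear libraries. The highest shear library lay well below the lowest static one. The means were 9.58 ± 0.66 and 4.57 ± 0.85 CPM (SD, n = 3 each), which is a log2 difference of -1.07 (SE 0.13, adjusted p = 6.84e-07 by edgeR). Epha7, another receptor for A ephrins, had 9.38, 7.68 and 10.2 CPM in static and 7.53, 6.90 and 7.09 CPM in shear libraries. The groups were just apart, with static replicate 2 close to the shear libraries. Its log2 fold change was -0.34 (SE 0.11, adjusted p = 0.0373 by edgeR). The call of Epha7 ended with the DESeq2 test (adjusted p = 0.0574) and with limma-voom (adjusted p = 0.0517). With 1 library left out it was lost at edgeR adjusted p of 0.115 (static replicate 1), 0.197 (static replicate 3), 0.124 (shear replicate 2) and 0.102 (shear replicate 3).

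All 10 tested Eph receptor genes had a log2 fold change below 0, from -1.07 to -0.01. The median was -0.37, beside -0.01 for all genes tested. Of the 10, 2 (20%) passed the threshold and 0 rose, beside 7.71% of all genes tested called lower. Epha3 (14 to 35 counts per library) and Epha10 (10 to 27) were low. Epha2, Ephb2 and Ephb4, with more counts, lay at -0.01, -0.02 and -0.09. Over the alternatives the median ran from -0.42 (library totals alone) to -0.23 (halved counts, 8 genes tested). The sign was the same for all 10 with each of the other scalings. Without static replicate 1 or static replicate 3 it was so for 9, and without shear replicate 2 for 8. Ephb3, a receptor for B ephrins, was the member of this family nearest to the threshold, with 3.37, 3.33 and 3.55 CPM in static and 2.53, 2.51 and 2.70 CPM in shear libraries. It had groups apart and a log2 fold change of -0.40 (SE 0.16, adjusted p = 0.0807 by edgeR), and passed with library totals alone (edgeR adjusted p = 0.0463). Ephb4, the main receptor of ephrin-B2 in blood vessels, had 15.1 to 18.6 CPM in static and 14.5 to 17.0 CPM in shear libraries, and its groups overlapped. The estimated log2 change was -0.09 (SE 0.09, adjusted p = 0.534 by edgeR). Epha2, the most abundant Eph receptor gene, had a log2 fold change of -0.01 (SE 0.07, adjusted p = 0.922 by edgeR).

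None of the tested slit, netrin, robo and Unc5 genes passed the threshold, 0 of 9 by edgeR, DESeq2 or limma-voom, while 2 (Slit2 and Robo2) had an unadjusted edgeR p under 0.05. Slit2 had 113, 106 and 111 CPM in static and 103, 103 and 99.1 CPM in shear libraries. Its groups were apart by a small margin, with a log2 fold change of -0.12 (SE 0.05, adjusted p = 0.101 by edgeR). It passed with upper-quartile factors (edgeR adjusted p = 0.0414) and with library totals alone (0.0154). The log2 fold change of Slit3 was 0.07 (SE 0.07, adjusted p = 0.591 by edgeR). Of their receptor genes, Robo1 had a log2 fold change of -0.07 (SE 0.06, adjusted p = 0.423 by edgeR) and Robo2 one of -0.22 (SE 0.10, adjusted p = 0.131 by edgeR). Both had all shear values below all static ones, as did 15.9% of all genes tested. For Robo1 the margin was small, with 46.3 CPM in the highest shear and 46.6 CPM in the lowest static library. For the netrins, Ntn4 went from 9.52 ± 0.63 to 8.35 ± 0.41 CPM (SD, n = 3 each), with a log2 difference of -0.19 (SE 0.10, adjusted p = 0.218 by edgeR). Ntn1 had a log2 fold change of -0.06 (SE 0.15, adjusted p = 0.844 by edgeR). The abundant receptor gene Unc5b had 126 to 131 CPM in static and 119 to 130 CPM in shear libraries and a log2 fold change of -0.04 (SE 0.05, adjusted p = 0.690 by edgeR).

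Partners and effectors of these pathways were counted from 5 lists chosen for their roles. Of 111 symbols 109 matched a row and 97 were tested, of which 20 rose, 6 fell and 71 did not pass. The called share of 26.8% stands beside 18.5% of all genes tested, and the median log2 fold change was 0.01. With upper-quartile factors 18 rose and 9 fell, and with library totals alone 16 rose and 15 fell.

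Among other guidance proteins, 2 of 7 tested genes rose and 0 fell, a share of 28.6% beside 18.5% of all genes tested. Both genes that rose encode FLRT proteins, membrane proteins that bind Unc5 receptors. Flrt2 had 41.2, 40.9 and 40.6 CPM in static and 71.8, 74.8 and 72.3 CPM in shear libraries. The libraries of each group lay close together, and it rose by 0.84 on the log2 scale (SE 0.05, adjusted p = 1.36e-11 by edgeR). Flrt3 rose by 0.49 (SE 0.14, adjusted p = 0.0123 by edgeR). That call was lost in each of 3 runs with 1 library left out, at edgeR adjusted p of 0.0615 (static replicate 2), 0.0514 (static replicate 3) and 0.065 (shear replicate 2). The netrin receptor gene Dcc, named after its value was seen, had 0 counts in every library, and neogenin (Neo1), named in the same way, had a log2 fold change of -0.07.

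Of 18 tested co-receptors and shared ligands 4 rose and 1 fell, a share of 27.8% beside 18.5% of all genes tested. Vegfa, the VEGF gene whose product also binds neuropilins, rose by 1.02 ± 0.04, and its receptor gene Flt1 by 0.51 ± 0.10 on the log2 scale (SE). Kdr, the main signalling receptor gene for VEGF and also a member of the endothelial list above, had 6.54, 7.65 and 7.65 CPM in static and 2.80, 3.31 and 4.93 CPM in shear libraries. Its groups did not overlap, and the log2 fold change was -0.98 (SE 0.16, adjusted p = 4.47e-05 by edgeR).

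Of 29 tested plexin and neuropilin effectors 8 rose and 3 fell, a share of 37.9% beside 18.5% of all genes tested. Among those that fell, Arhgap35 had a log2 fold change of -0.14 and Mras one of -0.17, both named after their values were seen. The Ras GTPase-activating protein gene Rasa1 rose by 0.46. Mical2, of a family of plexin-linked actin regulators, rose by 0.26, and the related gene Micall1 by 0.31. Of 24 tested Eph and ephrin effectors 3 rose and 0 fell, a share of 12.5%. These were Rgs3 (0.71), whose product can bind the tail of B ephrins, the kinase gene Abl1 (0.34) and the exchange factor gene Vav2 (0.40), which acts below Eph receptors. Of 19 tested slit, robo and netrin effectors 3 rose and 2 fell, a share of 26.3%. The GTPase-activating protein genes Srgap1 (0.39) and Srgap2 (0.36), named for their link to slit and robo, and the exchange factor gene Trio (0.34) rose. Sos1, an exchange factor gene, fell by 0.26, and Arhgap39, named after its value was seen, by 0.37.

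**Figure D5:**
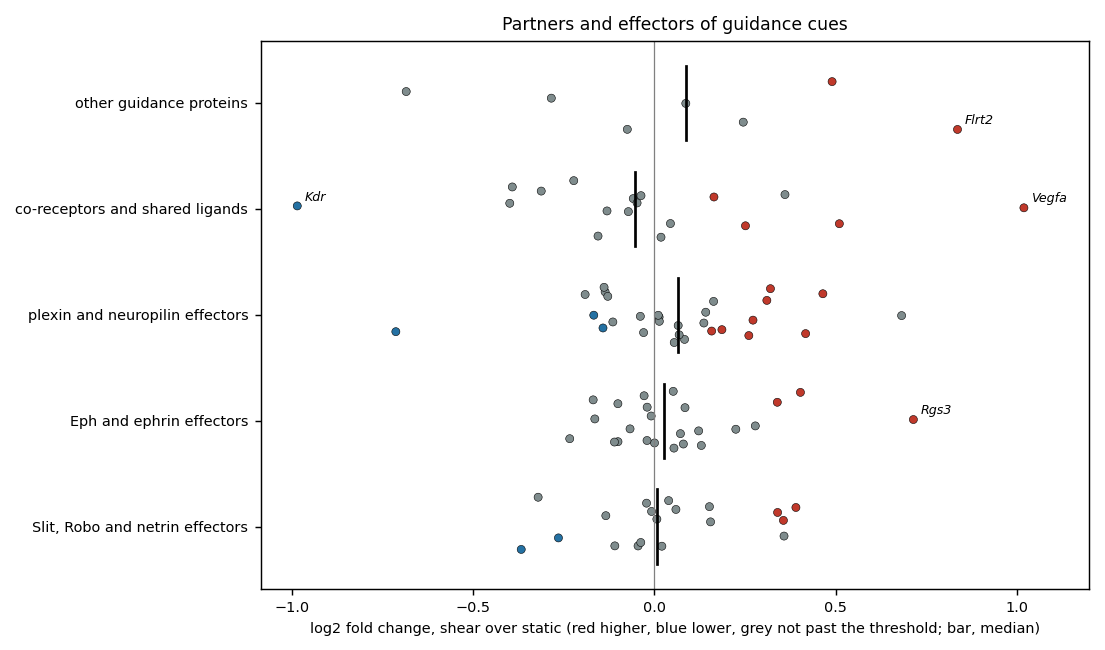
Log2 fold change, shear over static, of the tested partner genes in 5 lists, 1 dot a gene (red rose, blue fell, grey not past the threshold), with the median of each list as a black bar. Medians lie between -0.05 and 0.09, and the labelled genes are Vegfa, Flrt2, Rgs3 and Kdr, with dots of both colours left without a label.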

How the data were processed

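Stranded mRNA libraries were made from total RNA of 6 samples, 3 static and 3 under shear, per the labels' protocols. The authors deposited 1 table of raw counts per gene, with exon positions and summed exon length, per the file headers. Tools listed in the submitters' processing notes are edgeR 3.12.1, Trimmomatic 0.36, Subread 1.5.1 and featureCounts. For the aligner, genome build, annotation and strand setting, the sources used here give nothing. Between 71.4% and 72.2% of counts from 1 to 20 were even, so a run with halved counts was made.

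The groups were compared over the whole table with edgeR 4.0.16 in R 4.3.3: filterByExpr (minimum count 10), TMM factors (0.979 to 1.026), two-sided quasi-likelihood test and Benjamini-Hochberg adjustment over 13945 genes, at a threshold of 0.05. Without adjustment, 4102 genes had p under 0.05. CPM uses the TMM-scaled totals of the tested genes. An SE was derived from the fold change and the F statistic (the log2 value, sign dropped, divided by √F). The test was checked on simulated counts. Chi-square over degrees of freedom between replicates was 5.32 to 7.75, and each library counted as 1 sample. This ratio does not show whether replicates are separate cultures.

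Members and lists were chosen with earlier results of these data known. Genes named are all members past the threshold, 21 ligand and receptor genes fixed by role, the 5 most abundant ligand and 5 receptor genes, the 3 nearest misses, the untested member with most counts and up to 4 changed genes per partner list; others are marked, or complete a family. One plexin and neuropilin effector that the rule names is not reported here. The symbols Hjv, Crkl and Pecam1 matched no row and were not used here. Promoters came from RefSeq (GRCr8).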

Additional observations from a re-analysis of the deposited data

How the results depend on the processing

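The counts of changed genes and the fold changes of 46 named genes were recomputed with DESeq2 size factors, upper-quartile factors, library totals alone, no low-count filter, the DESeq2 Wald test (version 1.42.0), limma-voom (version 3.58.1), halved counts, the replicate number as a block, and each library left out. Over these 14 alternatives the number of changed genes stayed within 1.5 times the value reported: 4 to 6 receptor genes, 7 to 10 ligand genes, 20 to 31 partner genes and 1962 to 2854 of all genes. Of the 12 guidance genes that passed, 11 kept their call and direction in all 14, and Epha7 kept its direction and lost its call in 6. No alternative reversed a called gene among the 46 named ones. Same-numbered libraries did not deviate together (correlations of -0.0231, -0.0614 and 0.0192), and 1 of 6 libraries was closest to its own number. With the replicate block 2336 genes changed, 7 ligand and 5 receptor genes among them. Low counts limited precision: the standard error was 0.45 for Sema6c, 0.38 for Epha3 and 0.27 for Sema4d. Changes of that size, and some larger ones, were not detectable at this depth. Epha3, for one, did not pass the threshold at a log2 fold change of -0.60.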
